A study of Mus musculus with 36 samples.

Results

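Cdx1, Cdx2 and Cdx4 are the caudal-type homeobox genes of the mouse, and all probes that carry one of these 3 symbols on the array were taken. There were 4 such probes, 2 for Cdx1 (probe 1, ILMN_2725801, and probe 2, ILMN_2863641), 1 for Cdx2 (ILMN_2725853) and 1 for Cdx4 (ILMN_1241829). All 4 passed the filter on detection, so that 3 of the 15556 genes tested, out of 30869 symbols on the array, are described here. The study dissected regions of the primitive streak and tail bud from wild-type MF1 mouse embryos to compare axial progenitor regions with their neighbours and with later stages. Each of the 36 arrays held amplified RNA from 1 pool of 6 to 74 dissected pieces, and the arrays fell into 16 regions with 2 or 3 arrays each. At the headfold stage (E7.5) these were an anterior piece fated to brain (A, 3 arrays), a posterior piece that holds the streak (P, 2 arrays) and the proximal end of the posterior side (PP, 2 arrays). At E8.5, with 2 to 5 somites, they were the rostral node (RN, 2 arrays), the node-streak border (NSB, 3 arrays), the caudal lateral epiblast beside the streak (CLE, 3 arrays), and the rostral (St1, 2 arrays) and caudal (St5, 2 arrays) ends of the streak. In the tail bud the chordoneural hinge (CNH), where node, neural tube and tail bud mesenchyme meet, was taken at E9.5 (2 arrays), E10.5 (2), E11.5 (3), E12.5 (2) and E13.5 (2), and the tissue just behind it (P-CNH) at E9.5, E10.5 and E11.5 (2 arrays each). The somite ranges were 22 to 25, 32 to 35, 40 to 45, 50 to 55 and 60 to 63 from E9.5 to E13.5.

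Cdx proteins are homeodomain transcription factors, relatives of the Hox proteins that sit in or descend from the ParaHox cluster. They are switched on in the posterior embryo downstream of Wnt, FGF and retinoic acid signals, and they act on Hox genes and on the genes that keep axial progenitors in the streak and tail bud. Embryos that lose several Cdx genes stop elongating their axis, and Cdx2 also acts earlier in the trophectoderm and later in the gut.

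The stretches of DNA just upstream of Cdx2 and Cdx4 are shown because the 16 region means of these genes ran alongside each other more closely than either ran with Cdx1, as given with the region means. RefSeq (GRCm38.p6) places the 250 bases before the start of Cdx2 at chr5:147307250-147307499 on the minus strand and those before Cdx4 at chrX:103321148-103321397 on the plus strand. Capitals mark the octamer ATGCAAAT, which was chosen after the sequences had been seen.
Cdx2 promoter: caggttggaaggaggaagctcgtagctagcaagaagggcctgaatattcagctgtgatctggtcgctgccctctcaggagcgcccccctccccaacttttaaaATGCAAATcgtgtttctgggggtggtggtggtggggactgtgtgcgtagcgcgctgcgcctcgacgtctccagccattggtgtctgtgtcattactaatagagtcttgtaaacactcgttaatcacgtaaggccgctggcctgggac
Cdx4 promoter: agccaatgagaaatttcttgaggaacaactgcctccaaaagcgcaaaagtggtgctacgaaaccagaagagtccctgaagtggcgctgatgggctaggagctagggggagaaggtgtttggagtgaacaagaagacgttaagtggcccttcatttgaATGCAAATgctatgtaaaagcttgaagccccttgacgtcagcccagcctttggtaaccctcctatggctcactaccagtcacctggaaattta
On the strand of the gene the octamer began 147 bases before the start of Cdx2 and 93 bases before that of Cdx4. Of 32851 mouse promoters of 300 bases, 570 (1.74%) held it on either strand. The motif TTTATG, of the type bound by Cdx proteins, was in neither promoter on either strand and in 11.9% of all promoters. The TCF/LEF-type motif CTTTGA was in neither and in 16% of all promoters. CTTTGT, of the same type, was in neither and in 18.7% of all promoters. AGGTCA, the half-site of retinoic acid receptors, was in neither and in 16.3% of all promoters. The GC content of the 250 bases was 55.2% for Cdx2 and 48.4% for Cdx4. Motifs were searched in windows of 300 bases, of which the 250 before the start are shown. No result is given for the promoter of Cdx1. These are matches of letters and say nothing of binding.

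Across the 16 regions the Cdx genes were among the most variable genes on the array. Values are log2 intensities after background correction and quantile normalisation, and region means carry an adjustment for 3 batches of 12 arrays. The adjusted mean of Cdx1 probe 1 ran from 4.48 in the E13.5 CNH to 13.09 in E8.5 St1, a span of 8.61 that exceeded those of 99.9% of tested probes. That of Cdx1 probe 2 ran from 4.93 to 12.22 in the same regions, a span of 7.29 (percentile 99.8). Cdx2 ran from 6.94 in E7.5 A to 13.90 in E8.5 St1, a span of 6.96 (percentile 99.7). Cdx4 ran from 5.65 in E7.5 A to 11.27 in the E9.5 P-CNH, a span of 5.63 (percentile 99.1). On means not adjusted for batch Cdx4 was highest in the E10.5 P-CNH (11.75) and E8.5 St5 (11.73), with the E9.5 P-CNH at 10.58. The lows of Cdx1 and Cdx4 were under the detection limit, so that their spans and the order of their lowest regions rest in part on background. A probe counted as detected on an array at a detection p under 0.01. Cdx2 was detected on all 36 arrays, Cdx1 on 29 (probe 1) and 33 (probe 2), and Cdx4 on 30. The residual SD of the arrays around the fitted means was 0.29 and 0.35 for the Cdx1 probes, 0.21 for Cdx2 and 0.50 for Cdx4.

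**Figure D1:**
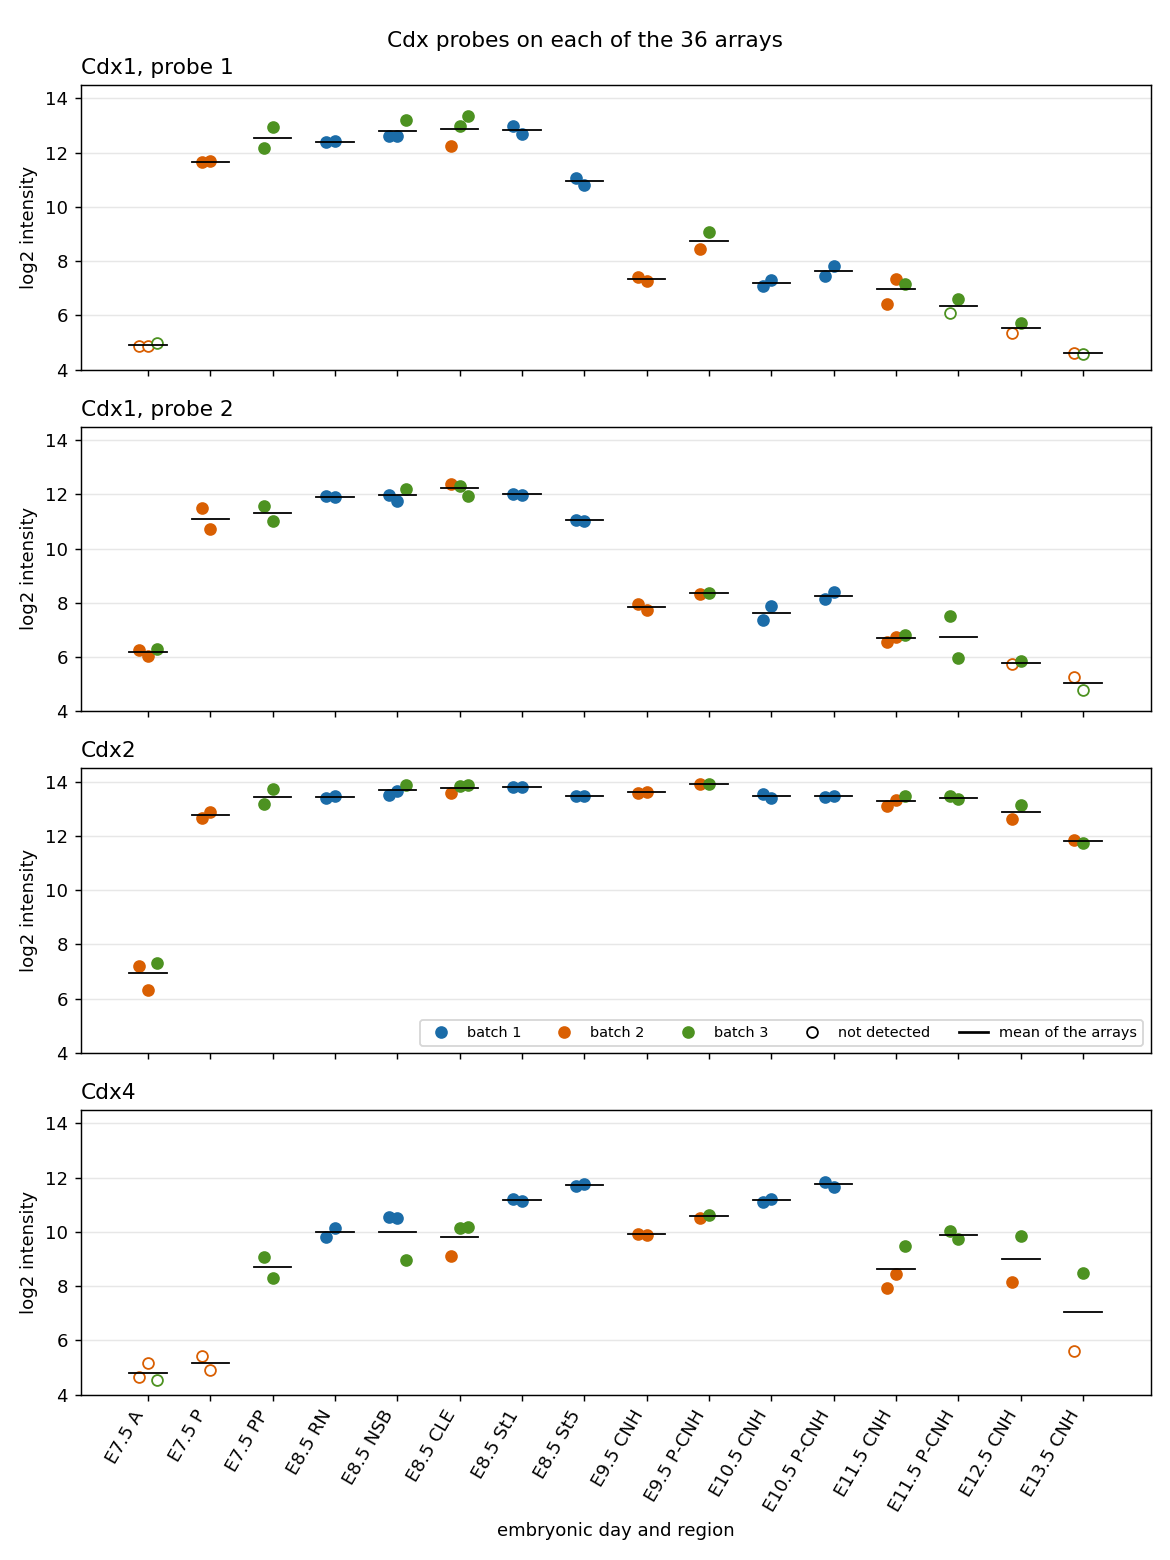
Log2 intensity (vertical axis) of each Cdx probe on each of the 36 arrays, by region (horizontal axis), coloured by batch and open where the probe was not detected. Cdx1 is high in E7.5 P and PP and at E8.5 and low in E7.5 A and the tail bud, Cdx2 is low in E7.5 A and lower at E13.5 than in the earlier tail bud, and Cdx4 is undetected in E7.5 A and P.

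Ordered by adjusted mean, most neighbouring regions did not differ beyond their spread, that is, the 95% interval of their difference held 0. For Cdx1 probe 1 the order was E8.5 St1, NSB, CLE and RN, E7.5 PP and P, E8.5 St5, the P-CNH of E9.5 and E10.5, the CNH of E10.5, E9.5 and E11.5, the E11.5 P-CNH, the E12.5 CNH, E7.5 A and the E13.5 CNH. In that order the intervals left out 0 at 3 steps, from E8.5 St5 to the E9.5 P-CNH (2.56, 95% interval 1.57 to 3.54), from the E11.5 CNH to the E11.5 P-CNH, where 1 of 2 arrays detected it (0.86, 0.26 to 1.47) and, barely, from the E12.5 CNH to E7.5 A (0.57, 0.00 to 1.13). Cdx1 probe 2 placed every region up to E8.5 except E7.5 A above every tail bud region as well, with a step of 2.50 (1.31 to 3.70) between E7.5 P and the E10.5 P-CNH. Its other steps beyond the spread were from NSB to St5 (0.84), from the E9.5 CNH to the E11.5 P-CNH (1.07) and from the E12.5 to the E13.5 CNH (0.76). For Cdx2 the order was E8.5 St1, the E9.5 P-CNH and CNH, E8.5 NSB and CLE, the E10.5 CNH, E8.5 St5, the E10.5 P-CNH, E8.5 RN, the E11.5 CNH, E7.5 PP, the E11.5 P-CNH, E7.5 P, the CNH of E12.5 and E13.5, and E7.5 A. None of its first 14 regions differed from its neighbour, while the E12.5 CNH lay above the E13.5 CNH by 1.09 (0.60 to 1.58) and the E13.5 CNH above E7.5 A by 4.83 (4.38 to 5.27). For Cdx4 the order was the E9.5 P-CNH and CNH, the E10.5 P-CNH, E8.5 St5 and CLE, the E11.5 P-CNH, E8.5 St1, the CNH of E10.5, E12.5 and E11.5, E8.5 NSB, E7.5 PP, E8.5 RN, the E13.5 CNH, and E7.5 P and A. The single Cdx4 step beyond the spread was from the E13.5 CNH to E7.5 P (1.36, 0.33 to 2.38), with the probe detected on 1 of 2 arrays of the former and 0 of 2 of the latter. The steps of Cdx1 to E7.5 A on probe 1 and to the E13.5 CNH on probe 2 likewise ended under the detection limit.

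Cdx4 depended on the batch adjustment far more than Cdx1 and Cdx2 did. Batch 1 held all arrays of RN, St1, St5 and both E10.5 regions and 2 of the 3 NSB arrays, so that the third NSB array, in batch 3, was the sole link between batch 1 and the rest. Cdx4 read 10.54 and 10.498 on the NSB arrays of batch 1 and 8.95 on that of batch 3. The fit accordingly set Cdx4 in batch 2 at -2.61 and in batch 3 at -1.57 relative to batch 1. For the Cdx1 probes and Cdx2 the largest batch term was 0.58. Each Cdx4 difference between a region of batch 1 and a region outside it therefore rested on 1 array, and the rank of these Cdx4 means among the others with it. Without that array 9 of the 26 comparisons could not be fitted at all.

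**Figure D2:**
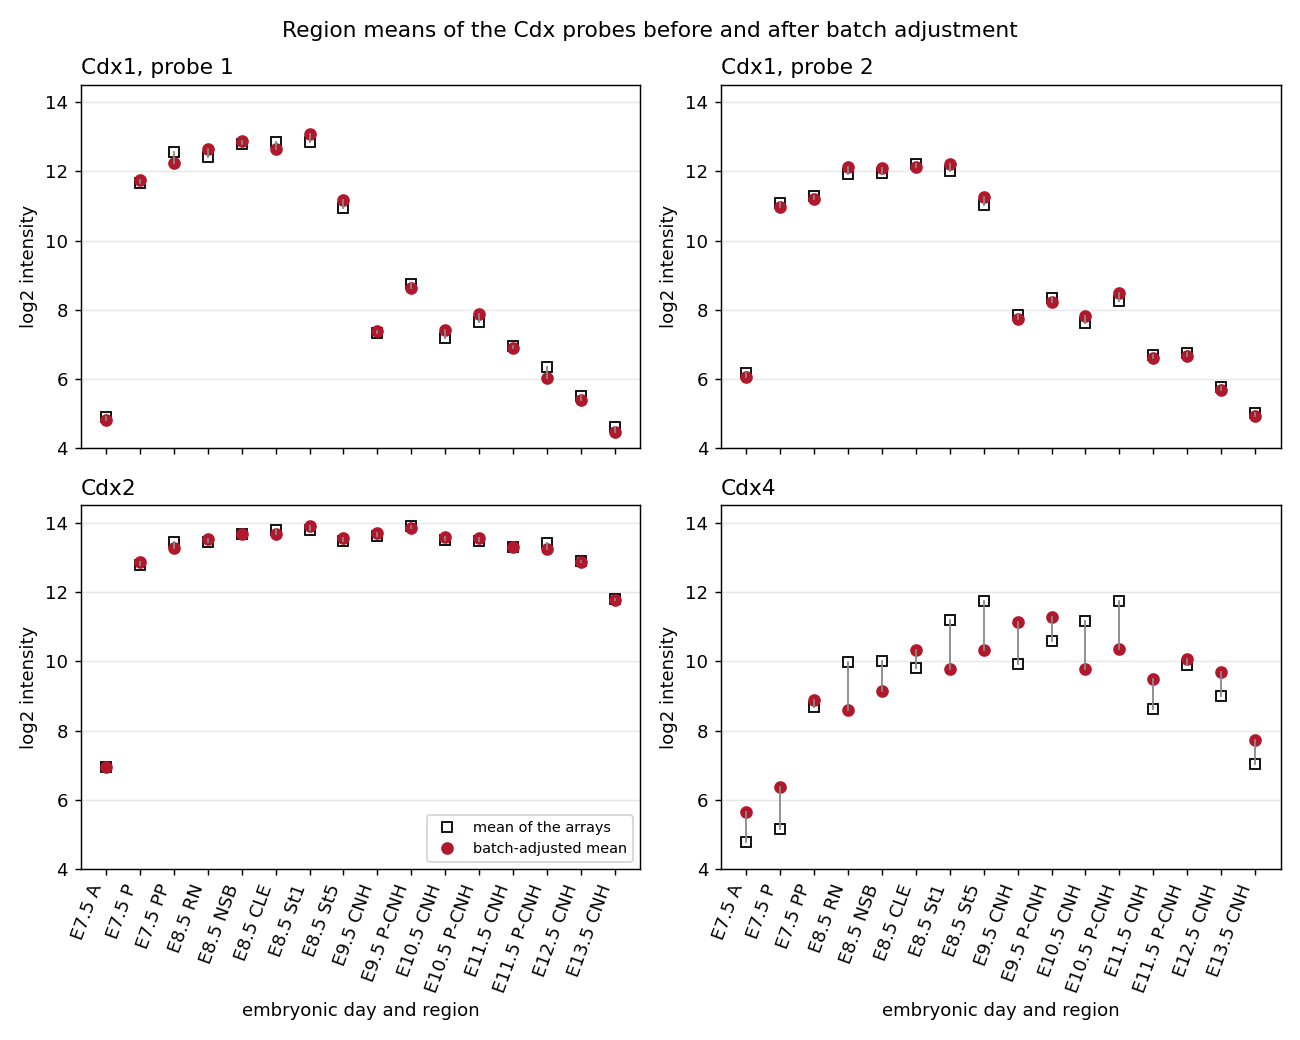
Log2 region means (vertical axis) of each Cdx probe by region (horizontal axis), as the plain mean of the arrays (squares) and after the batch adjustment (circles). Squares and circles nearly coincide for Cdx1 and Cdx2, whereas for Cdx4 the circles lie below the squares in all regions of batch 1 and above them elsewhere.

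At the headfold stage the comparison of P with A asked how the posterior, streak-bearing piece differed from the future brain. Cdx1 and Cdx2 were high in P and far lower in A. Cdx2 was still detected in A. Probe 2 of Cdx1 was detected there close to the detection limit, and probe 1 of Cdx1 was not. Cdx4 was not detected in either piece. In PP, the proximal end of the posterior side, all 3 genes were on. Differences are log2, and a probe was called where the adjusted p of limma was at most 0.05 and the fold at least 1.5.

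In the 3 A arrays Cdx2 read 7.19, 6.33 and 7.30, in the P arrays 12.67 and 12.89, and in the PP arrays 13.17 and 13.73. Every posterior array lay above every anterior one, and P and PP did not overlap. Cdx1 probe 1 read 4.86, 4.86 and 4.97 in A, 11.64 and 11.70 in P, and 12.16 and 12.96 in PP. No A array detected it, although probe 2 of Cdx1 was detected in A at 6.26, 6.02 and 6.28 and stood at 11.48 and 10.73 in P and at 11.58 and 11.02 in PP. The detection p of probe 2 in A was 0.00962, 0.00962 and 0.00107, close to the limit of 0.01 on 2 of the 3 arrays. Both Cdx1 probes thus separated A from the posterior arrays with no overlap. Cdx4 read 4.64, 5.18 and 4.52 in A, 5.43 and 4.89 in P, and 9.07 and 8.31 in PP. It was detected in the PP arrays alone, and its A and P values overlapped.

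In P against A 3 of the 4 Cdx probes were called higher, where 1.52% of all 21712 tested probes were. Cdx2 was 60.9-fold higher in P (log2 difference 5.93, SE 0.218, 95% interval 5.47 to 6.38, adjusted p 2.69e-14). For Cdx1 probe 1 the fold was at least 49.1 (fitted difference 6.91, SE 0.275, adjusted p 9.84e-14), a bound that sets the mean of P against the lowest detected signal on each A array and carries no batch term. Cdx1 probe 2 was 30-fold higher (4.91, adjusted p 5.86e-10), with its A values close to the detection limit. Cdx4 was below detection in both regions and has no fold (fitted difference 0.73, adjusted p 0.652). Within batch 2, which held both regions, the difference was 6.02 for Cdx2. Over the 12 other settings of the processing the Cdx2 difference ran from 4.93 to 6.10. These p-values measure the spread between these pools of pieces. In bulk samples like these, fewer cells of a type and less RNA per cell cannot be told apart.

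In PP against A all 4 probes were called higher, where 3.14% of all tested probes were. Cdx2 was 80.4-fold higher (6.33, SE 0.23, adjusted p 2.03e-14) and Cdx1 probe 1 at least 90.8-fold higher (fitted 7.41, adjusted p 6.72e-14). Probe 2 of Cdx1 was 35.1-fold higher (5.13, adjusted p 3.91e-10), again with its A values close to the detection limit. Cdx4 was at least 6.21-fold higher (fitted 3.22, SE 0.468, adjusted p 6.1e-05). The Cdx4 difference ran from 1.60 with a background offset of 100 to 4.08 with the BeadChip as a random block, and the call held in each of the 12 settings and without any 1 array.

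Between the posterior pieces, PP against P, 1 of the 4 Cdx probes was called higher, where 0.391% of all tested probes were. That probe was Cdx4 (fitted difference 2.49, SE 0.541, 95% interval 1.36 to 3.61, adjusted p 0.0266). P lay in batch 2 and PP in batch 3, so no batch held both, and with P under the detection limit no fold is given. The call was lost without P replicate 1 (2.78, adjusted p 0.0554), without P replicate 2 (2.20, adjusted p 0.118) or without PP replicate 1 (2.10, adjusted p 0.351), and also with cyclic loess in place of quantile normalisation (2.69, adjusted p 0.062) or with no background correction (1.37, adjusted p 0.129). It held in 5 of 12 other settings, with values from 1.22 to 3.78. With the replicate number as a block the Cdx4 call was lost as well. Cdx2 differed by 0.40 (adjusted p 0.643) and Cdx1 probe 1 by 0.50 (adjusted p 0.645).

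Genes of the pathways and families around Cdx were counted in P against A, where the median of all tested probes was -0.04 and 1.52% were called higher. Values are given for genes detected in both regions, while medians of a list take in all its genes. Of 5 Wnt ligands tested, 4 were higher (median 3.08), among them Wnt8a (3.77) and Wnt3a, undetected in A, and of 11 Wnt effectors and targets 5 were higher (median 2.06), such as the Wnt enhancer Rspo3 (3.71). Among 10 FGF ligands and feedback targets 5 were higher and 1, the epiblast ligand Fgf5 (-2.11), lower. Of 8 caudal progenitor transcription factors 5 were higher, such as the mesoderm factor Tbx6, undetected in A. Of 6 retinoic acid genes 1 was higher, the synthetic enzyme Aldh1a2, undetected in A, and 1 lower, the degrading enzyme Cyp26a1 (-1.62). Among Hox genes, 4 of 8 of groups 1 to 3 were higher (Hoxb1, undetected in A), as were 6 of 16 of groups 4 to 9 (4 with no background correction), 0 of 7 of groups 10 to 12 and 0 of 4 of group 13. Pdx1, a pancreas factor and the only other ParaHox gene tested, was not called in any of the 6 main comparisons and was undetected in both regions here.

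The label of the pieces was checked on markers in the same arrays. All 4 streak markers (the T-box factor T, the ligands Fgf8 and Wnt3a, the homeobox factor Evx1) were higher in P, with summed intensities of 2270, 2500 and 1460 in A and 15400 and 16300 in P. T had the highest intensity of them on all 5 arrays, which ranks no RNA levels since probes differ in response, and Wnt3a was undetected in A. Of 3 anterior epiblast markers 2 were lower in P, among them the forebrain factor Otx2 (-2.47), where 262 of all 21712 tested probes were called lower. In PP against P, 0.391% of all tested probes were called higher. Of 7 visceral endoderm markers 2, the retinol carrier Rbp4 and the serum protein Afp, were called higher in PP than in P, as Cdx4 was, with summed intensities of 10800 and 6070 in P and 37700 and 18000 in PP. The thyroxine carrier Ttr, not called, had the highest intensity of them in PP, and Afp and Rbp4 were undetected in P. Of 4 allantois and lateral plate markers the bHLH factor Hand1, undetected in P, was called higher in PP, the sums being 105 and 132 in P and 337 and 361 in PP. Of the 3 anterior epiblast markers Otx2 was called lower in PP than in P (-3.38), with sums of 1110 and 975 in P and 140 and 116 in PP. Their part in the Cdx4 difference was not tested. Among Hox groups 4 to 9, 6 of 16 genes were higher in PP than in P (median 1.88, against 0.01 over all probes), such as Hoxb6 and Hoxd4, both undetected in P.

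**Figure D3:**
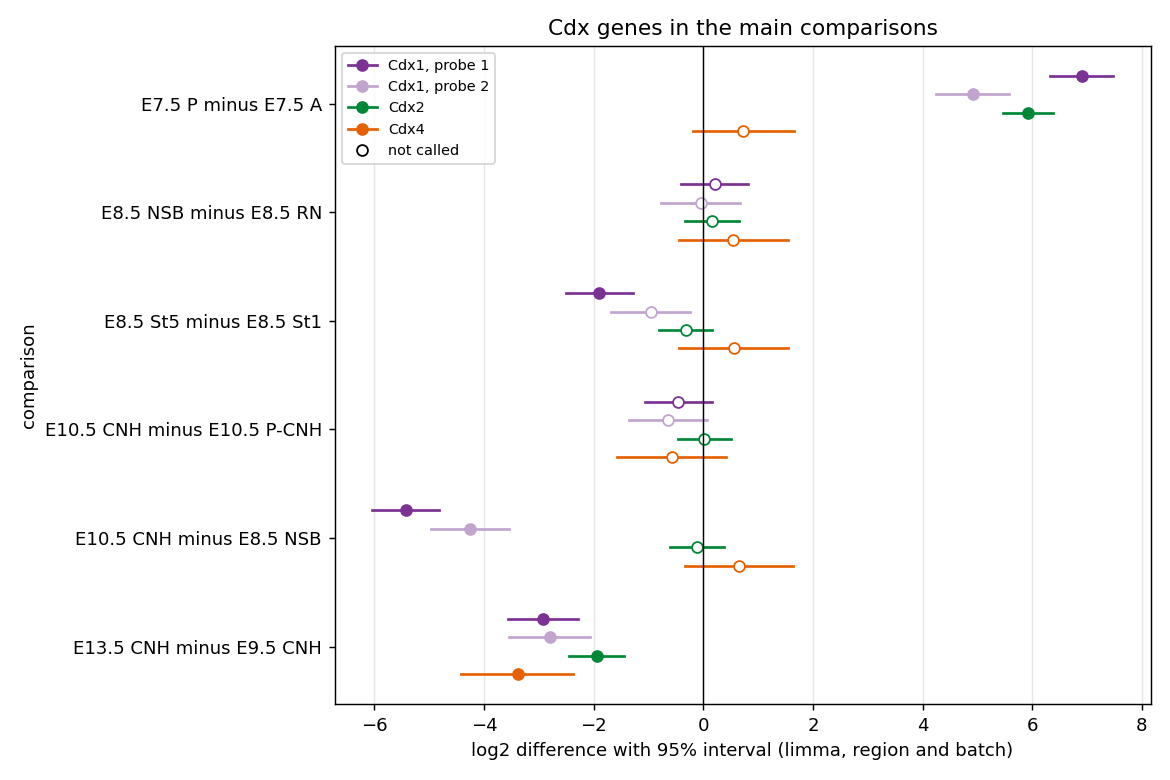
Log2 differences of the 4 Cdx probes in 6 comparisons (P against A, NSB against RN, St5 against St1, E10.5 CNH against P-CNH, E10.5 CNH against E8.5 NSB, E13.5 against E9.5 CNH), with bars for the 95% interval and filled points where called. Cdx1 and Cdx2 part in the step from E8.5 to E10.5, at -5.43 and -0.11.

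At E8.5 the comparisons set the parts of the streak and node against each other. With the processing used here Cdx2 was at nearly the same level in all 5 regions, and Cdx1 was lower at the caudal end of the streak. The Cdx4 means were lowest in RN and NSB after the batch adjustment, and in CLE (9.81) before it. On the Cdx2 probe, RN read 13.41 and 13.47, NSB 13.52, 13.67 and 13.87, CLE 13.59, 13.86 and 13.89, St1 13.80 on both arrays, and St5 13.46 and 13.49. The ranges of RN and St5 overlapped at the low end, and all values lay within less than 1 log2 unit. None of the 10 pairs of E8.5 regions was called for Cdx2, and the largest difference was 0.36 (St1 against RN, 95% interval -0.12 to 0.85). Over 12 other settings that difference ran from 0.36 to 1.02, uncalled in 11 and called in the rest. CLE against RN ran from 0.06 to 1.22 and St5 against CLE from -1.1 to -0.04. Each of these was uncalled in 10 of 11 settings and called in the rest.

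Cdx1 probe 1 read 12.39 and 12.42 in RN, 12.61, 12.62 and 13.19 in NSB, 12.23, 12.97 and 13.37 in CLE, 12.98 and 12.69 in St1, and 11.06 and 10.81 in St5. Both St5 arrays lay below every other E8.5 array, while the other 4 regions overlapped or adjoined. Cdx1 probe 2 read 11.95 and 11.90 in RN, 11.99, 11.76 and 12.18 in NSB, 12.40, 12.30 and 11.95 in CLE, 12.02 and 11.98 in St1, and 11.05 and 11.02 in St5. Here too St5 was below all the rest, with a smaller gap.

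Cdx4 read 9.82 and 10.13 in RN, 11.22 and 11.14 in St1 and 11.69 and 11.77 in St5, all in batch 1. In NSB it read 10.54 and 10.498 in batch 1 and 8.95 in batch 3, and in CLE 9.12 in batch 2 and 10.13 and 10.18 in batch 3. Within batch 1 the means stood in order from node to caudal streak, 9.98 in RN, 10.52 in NSB, 11.18 in St1 and 11.73 in St5, and no arrays of these regions overlapped. Within batch 3, CLE lay above NSB by 1.20.

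In St5 against St1, the caudal against the rostral end of the streak, 1 of the 4 probes was called lower, where 1.34% of all tested probes were. Cdx1 probe 1 fell by 1.90 on the log2 scale (3.73-fold, SE 0.296, 95% interval -2.51 to -1.28, adjusted p 0.00027), and both St5 arrays were below both St1 arrays. Probe 2 had the same direction and no overlap but was not called (-0.96, SE 0.345, adjusted p 0.199). Cdx2 differed by -0.32 (adjusted p 1) and Cdx4 by 0.55 (95% interval -0.44 to 1.54, adjusted p 1). Relative to Cdx2 on the same array, the change of Cdx1 probe 1 was -1.58 (adjusted p 0.00495), against 3.01% of probes called, and that of probe 2 was -0.64 (adjusted p 0.766). That call on probe 1 was lost without St1 replicate 1 (-1.42, adjusted p 0.111) or St5 replicate 2 (-1.44, adjusted p 0.115). Relative to Cdx4 it was -2.45 and not called (adjusted p 0.0695), against 0.534% of probes called.

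Markers of tissues behind the streak were called along with the lower Cdx1 of St5. All 4 allantois and lateral plate markers were higher in St5 (median 2.61, against -0.01 over all probes, of which 1.93% were called higher; 2 of the 4 with no background correction), with summed intensities of 216 and 178 in St1 and 3900 and 4970 in St5. The T-box factor Tbx4 (5.09) had the highest intensity, and Hand1, its relative Hand2 and the homeobox factor Pitx1 were undetected in St1. The single trophoblast and chorion marker tested, the zinc-finger factor Gata3, was called higher, with 33.4 and 32.8 in St1, where it was undetected, and 577 and 504 in St5. Of 5 gut endoderm markers 1 was lower, the hormone precursor Trh (-2.10), the sums being 11000 and 10200 in St1 and 8100 and 6420 in St5. Their part in the Cdx1 difference was not tested. Of the genes around Cdx, 7 of 16 Hox genes of groups 4 to 9 were higher in St5 (Hoxd9 4.84, Hoxd8 4.24), as were 3 of 7 of groups 10 to 12 (Hoxd10, undetected in St1). Of 5 Wnt ligands 1 was lower (Wnt8a -3.50), where 1.34% of all tested probes were, and of 6 retinoic acid genes 1 (Aldh1a2, undetected in St5). Sp8 of the Wnt effectors and targets (limma, adjusted p 0.00441) and the FGF ligand Fgf4 (adjusted p 0.0197) were also called lower. Hoxd1 of Hox groups 1 to 3 was called higher (adjusted p 0.000516). Of 8 caudal progenitor factors 1 was higher, the streak homeobox factor Mixl1 (2.48), and 2 lower, among them the neural progenitor factor Nkx1-2 (-2.32).

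St5 was also set against the node regions and CLE. Against RN, 2 of the 4 Cdx probes were called in opposite directions, where 6.05% of all tested probes were called in either. Cdx1 probe 1 fell by 1.47 (2.77-fold, adjusted p 0.00192; probe 2 -0.89, adjusted p 0.201), and Cdx4 was 3.38-fold higher (1.76, SE 0.478, adjusted p 0.0253). The Cdx4 call was lost without any 1 of the 4 arrays, RN replicate 1 (1.60, adjusted p 0.23), RN replicate 2 (1.91, adjusted p 0.0918), St5 replicate 1 (1.79, adjusted p 0.132) or St5 replicate 2 (1.72, adjusted p 0.173). It held in 9 of 12 other settings, with values from 1.68 to 3.53. Against NSB, 1 of the 4 probes was called lower, where 3.09% of all probes were: Cdx1 probe 1 fell by 1.67 (3.19-fold, adjusted p 0.000522; probe 2 -0.84, adjusted p 0.28). Cdx4 was higher in St5 than in NSB by 1.21 and not called (adjusted p 0.234). It stayed uncalled in 6 of 12 other settings and was called in the rest, with values from 1.17 to 2.16. Against CLE limma called 0 of the 4 probes, with 1 at an unadjusted p under 0.05 (Cdx1 probe 1, -1.47, adjusted p 0.142), where 1.48% of all probes were called.

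Among the other E8.5 regions limma called 0 of the 4 Cdx probes in each pair. In NSB against RN, 0 had an unadjusted p under 0.05, and 29 probes (0.134% of those tested) were called, 13 higher and 16 lower, a split that became 13 and 30 with cyclic loess. In St1 against RN, 1 had (Cdx4, 1.21, adjusted p 0.434), with 2.24% of all probes called. In CLE against RN, 1 had (Cdx4, 1.75, adjusted p 0.609), with 1.43% of all probes called. In St1 against NSB, 0 had, with 1.42% called, and in CLE against St1, 0 had, with 0.106% called. In CLE against NSB, 1 had (Cdx4, 1.21, adjusted p 0.54), with 2.4% called. The Cdx4 difference of CLE against NSB turned to -0.19, and that against RN to -0.16, when the batch term was left out.

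Some signalling genes were called between NSB and RN, where 13 of all 21712 tested probes were called higher and 16 lower. Wnt3a (2.80), Rspo3 (1.42), Fgf8 (1.95) and Fgf17 (1.81) were higher in NSB, and so were 3 of 8 caudal progenitor factors (1 with cyclic loess), Mixl1 (2.10, detected on 1 of 2 RN arrays), Evx1 (2.04) and Tbx6 (1.62). The 4 streak markers summed to 6730 and 8510 in RN and to 20000, 23500 and 23500 in NSB. Over the same arrays Cdx2 differed by 0.16 (95% interval -0.33 to 0.65), Cdx1 probe 1 by 0.21 (-0.41 to 0.82) and Cdx4 by 0.54 (-0.45 to 1.54).

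The caudal change of Cdx1 was set against the difference of PP and P at the headfold stage. PP was the proximal posterior piece. P took in the rest of the embryo along with the streak, so it was not a rostral streak piece like St1. Cdx1 probe 1 was lower in St5 than in St1 at E8.5 (-1.90) and not lower in PP than in P at E7.5 (0.50). The difference of these differences was -2.40 (SE 0.448, adjusted p 0.00621), with 0.755% of all tested probes called. For probe 2 it was -1.19 (adjusted p 0.5), for Cdx2 -0.72 (adjusted p 0.605) and for Cdx4 -1.94 (adjusted p 0.345). The caudal regions themselves, St5 against PP, gave 0 of 4 probes called by limma and 1 at an unadjusted p under 0.05 (Cdx1 probe 1, -1.05, adjusted p 0.376), where 1.03% of all probes were called. With ComBat used without region covariates the difference of differences was -1.43 and its call was lost (adjusted p 0.196).

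In the tail bud, CNH and P-CNH of the same day were compared to set the progenitor-bearing hinge against the mesoderm behind it. None of the 3 genes was called on any day, and Cdx2 was nearly equal on both sides. At E10.5, in batch 1, Cdx1 probe 1 read 7.07 and 7.29 in the CNH and 7.47 and 7.81 in the P-CNH, Cdx2 13.55 and 13.42 against 13.43 and 13.49, and Cdx4 11.12 and 11.22 against 11.84 and 11.65. Cdx1 and Cdx4 lay lower in the CNH without overlap, and Cdx2 overlapped. The E10.5 differences, CNH minus P-CNH, were -0.46 for Cdx1 probe 1 (adjusted p 1), -0.65 for probe 2 (adjusted p 1), 0.02 for Cdx2 (95% interval -0.46 to 0.51) and -0.58 for Cdx4 (-1.57 to 0.41, adjusted p 1). Limma called 0 of the 4 probes and 0 had an unadjusted p under 0.05, where 69 (0.318%) of all tested probes were called. Fitted on batch 1 alone, Cdx4 was called at -0.60 (adjusted p 0.0293), and 559 probes were called.

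At E9.5 Cdx1 probe 1 read 7.40 and 7.27 in the CNH and 8.46 and 9.07 in the P-CNH, a difference of -1.23 (adjusted p 0.175), with 0 of 4 Cdx probes called by limma, 1 at an unadjusted p under 0.05 and 0.17% of all probes called. Cdx2 read 13.60 and 13.64 in the CNH and 13.91 and 13.92 in the P-CNH (-0.16), and Cdx4 9.93 and 9.90 against 10.51 and 10.64 (-0.14, 95% interval -1.17 to 0.88). All 3 lay lower in the CNH arrays without overlap, and none of the differences was called. At E11.5 Cdx1 probe 1 read 6.41, 7.33 and 7.14 in the CNH and 6.10, undetected, and 6.60 in the P-CNH, a difference of 0.86 (adjusted p 0.564) that on probe 2 was -0.06. There 0 of 4 probes were called by limma, 1 had an unadjusted p under 0.05, and 0.161% of all probes were called. Cdx2 read 13.10, 13.31 and 13.48 in the CNH and 13.47 and 13.36 in the P-CNH (0.07), and Cdx4 7.94, 8.45 and 9.49 against 10.03 and 9.75 (-0.57, adjusted p 1). As at E9.5 and E10.5, Cdx4 lay lower in the CNH arrays without overlap and was not called. Within batch 3 the Cdx4 difference was -0.41. The Cdx1 difference at E9.5 less that at E11.5 was -2.10 on probe 1, not called (adjusted p 0.0674, with 0.0276% of all probes called), and -0.45 on probe 2 (adjusted p 0.999).

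Markers of neighbouring tissues were called in the same comparison. At E10.5, 67 of all 21712 tested probes were called higher in the CNH and 2 lower, and the median of all probes was -0.01. At E10.5, 3 of 4 notochord and node markers were higher in the CNH (median 3.83), the signal Shh, the notochord factor Noto and the forkhead factor Foxa2, all undetected in the P-CNH, with summed intensities of 3270 and 2130 in the CNH and 137 and 128 in the P-CNH. Shh had the highest intensity in the CNH, and the cilia factor Foxj1 was undetected there. Of 5 gut endoderm markers 3 were higher, among them the forkhead factor Foxa1, undetected in the P-CNH, and the sums were 3060 and 2610 against 1150 and 853, with the claudin Cldn6 at the highest intensity. In the lists of Wnt, FGF, retinoic acid, Hox and caudal progenitor genes, 0 genes were called by limma in this comparison.

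From E8.5 to the tail bud Cdx1 dropped steeply while Cdx2 and Cdx4 were not called. NSB was set against the E10.5 CNH, 2 NSB arrays and both CNH arrays being in batch 1. Cdx1 probe 1 read 12.61 and 12.62 on the NSB arrays of batch 1, 13.19 on that of batch 3, and 7.07 and 7.29 in the E10.5 CNH. Probe 2 read 11.99 and 11.76, then 12.18, and 7.36 and 7.87. The groups were far apart on both probes, whereas Cdx2, at 13.52 and 13.67, then 13.87, and 13.55 and 13.42, overlapped. Cdx4, at 10.54 and 10.498, then 8.95, and 11.12 and 11.22, was higher on both CNH arrays than on any NSB array.

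Of the 4 Cdx probes 2 were called lower in the E10.5 CNH, where 3.6% of all tested probes were. Cdx1 fell 43.2-fold on probe 1 (-5.43, SE 0.296, adjusted p 7.72e-12) and 19.1-fold on probe 2 (-4.26, SE 0.345, adjusted p 7.25e-09). Cdx2 differed by -0.11 (95% interval -0.60 to 0.38, adjusted p 1) and Cdx4 by 0.65 (-0.34 to 1.64, adjusted p 0.725). With batch 1 fitted alone the Cdx4 difference was 0.67 and called (adjusted p 0.00214). Relative to Cdx2 on the same array, Cdx1 changed by -5.32 (SE 0.327, adjusted p 5.26e-11) on probe 1 and by -4.15 (adjusted p 9.21e-08) on probe 2, against 5.75% of probes called. Relative to Cdx4 the values were -6.08 (adjusted p 1.9e-08) and -4.91 (adjusted p 1.05e-06), against 2.62% of probes called. The mesodermal pair, St1 against the E10.5 P-CNH, all of whose arrays were in batch 1, showed the same order: 2 of 4 probes were called lower, where 3.13% of all were. There Cdx1 fell 36.7-fold on probe 1 (-5.20, adjusted p 3.57e-11) and 13.3-fold on probe 2 (-3.74, adjusted p 9.01e-08). Cdx2 differed by -0.34 (adjusted p 0.633) and Cdx4 by 0.56 (adjusted p 0.769). Over the other settings Cdx2 ran from -0.95 to -0.33 and Cdx4 from 0.55 to 1.14. Each was uncalled in 11 of 12 settings and called in the rest.

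Many Hox genes were called higher in the comparison in which Cdx1 fell. In the E10.5 CNH against NSB 6 of 7 genes of Hox groups 10 to 12 were higher (median 3.59, against -0.01 over all probes, of which 3.54% were called higher), among them Hoxd10 and Hoxc10, undetected in NSB, as were 2 of 4 of group 13, among them Hoxc13, also undetected in NSB, and 7 of 16 of groups 4 to 9. Of 5 Wnt ligands 2 were higher (Wnt5a 2.45, and Wnt3, undetected in NSB) and 1 lower (Wnt8a, undetected in the CNH), and of 11 Wnt effectors and targets 1 was higher (Rspo3 0.96). Of 6 retinoic acid genes 1 was higher (Cyp26a1 2.67) and 2 lower (Aldh1a2 and the receptor Rarb, both undetected in the CNH). Of 10 FGF genes 4 were higher and 1 lower, and of 8 caudal progenitor factors 1, Nkx1-2 (-1.84), was lower. Markers of other tissues were called as well. Blood markers were higher in 3 of 6 cases (among them the embryonic globin Hba-x 5.63), with summed intensities of 3940, 1740 and 1180 in NSB and 29300 and 31100 in the CNH, and the globin Hbb-y, at the highest intensity in the CNH, and the haem enzyme Alas2 were undetected in NSB. Gut endoderm markers were lower in 3 of 5 cases (Trh -4.69), with sums of 14500, 14000 and 14200 in NSB and 3060 and 2610 in the CNH, the highest intensities being those of Trh and Cldn6 in turn. Visceral endoderm markers were lower in 2 of 7 cases (0 with an offset of 100). Their part in the Cdx1 difference was not tested.

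When the days were taken singly in the fit with a batch term, Cdx1 was called lower from E8.5 to E9.5. That call held in 13 of 13 other settings, while the size of the step, from -6.24 to -3.32, depended on the setting, including how batches were handled. In NSB against P, the step from E7.5, 1 of 4 probes was called higher, where 1.87% of all tested probes were. This was Cdx4 (fitted difference 2.75, SE 0.638, adjusted p 0.0166), for which no fold is given because P was under the detection limit and no batch held both NSB and P. The call was lost without P replicate 2 (2.46, adjusted p 0.0751), with no background correction (1.58, adjusted p 0.0619) and with cyclic loess (2.88, adjusted p 0.135). It held in 7 of 12 other settings, with values from 1.28 to 4.83, the highest with no batch term. The Cdx2 difference in that step was 0.83 (adjusted p 0.179) and that of Cdx1 probe 1 was 1.13 (adjusted p 0.141). In the E9.5 CNH against NSB 2 of 4 probes were called lower, where 3% of all were. Cdx1 fell 44.3-fold on probe 1 (-5.47, SE 0.396, adjusted p 2.75e-09) and 20.6-fold on probe 2 (-4.36, adjusted p 9.88e-07). The smallest value on probe 1, -3.32 with ComBat without region covariates, was called, but in that setting the E10.5 against the E9.5 CNH was called as well, at -3.82, and the E11.5 against the E10.5 CNH at 3.13. The difference was 0.01 for Cdx2 (95% interval -0.64 to 0.66) and 2.00 for Cdx4 (adjusted p 0.0744), and without the batch term that of Cdx4 was -0.08. No batch held both NSB and the E9.5 CNH.

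The later steps followed the CNH from day to day. In the E10.5 against the E9.5 CNH limma called 0 of 4 Cdx probes and 0 had an unadjusted p under 0.05, where 0.0737% of all probes were called. The fitted Cdx4 difference there was -1.35 (95% interval -3.01 to 0.30), although the arrays read 11.12 and 11.22 at E10.5 and 9.93 and 9.90 at E9.5, and with no batch term it was 1.26. In the E11.5 against the E10.5 CNH limma called 0 of 4 and 1 had an unadjusted p under 0.05 (Cdx1 probe 2, -1.23, adjusted p 1), where 0.0829% of all probes were called. In the E12.5 against the E11.5 CNH 1 of 4 was called lower, where 0.0599% of all were. This was Cdx1 probe 1 (-1.50, SE 0.272, adjusted p 0.0144; -1.42 within batch 3), with 6.41, 7.33 and 7.14 at E11.5 against 5.34, undetected, and 5.72 at E12.5, and no overlap. Probe 2 was not called (-0.91, adjusted p 0.372). The probe 1 call was lost without E12.5 replicate 1 (-1.50, adjusted p 0.293), E12.5 replicate 2 (-1.49, adjusted p 0.0865) or E11.5 replicate 2 (-1.26, adjusted p 0.0995), and it held in 7 of 13 other settings, being lost with no background correction (-0.81, adjusted p 0.265).

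At E13.5, when elongation ends, all 3 genes were lower than at E9.5, the first CNH stage. Cdx1 read 4.63 and 4.58 on probe 1 and 5.26 and 4.80 on probe 2 at E13.5, detected on neither array, against 7.40 and 7.27, and 7.95 and 7.75, at E9.5. Cdx2 read 11.87 and 11.75 at E13.5 and 13.60 and 13.64 at E9.5. Cdx4 read 5.60, undetected, and 8.48 at E13.5 and 9.93 and 9.90 at E9.5. On each probe both late arrays lay below both early ones, and Cdx2 was still far above its level in E7.5 A.

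All 4 Cdx probes were called lower in the E13.5 against the E9.5 CNH, where 2706 of all 21712 tested probes were called lower and 23% were called in either direction. Cdx1 was at least 1.61-fold lower on probe 1 (fitted difference -2.92, SE 0.307, adjusted p 6.3e-07) and at least 2.3-fold lower on probe 2 (-2.80, adjusted p 8.96e-06). Cdx2 was 3.84-fold lower (-1.94, SE 0.243, 95% interval -2.45 to -1.44, adjusted p 6.81e-06). Cdx4, detected on 1 of the 2 E13.5 arrays, fell by 3.39 (SE 0.494, adjusted p 4.17e-05), and without E13.5 replicate 1 the difference was -2.16, without replicate 2 -4.33, both called. Within batch 2 the Cdx2 difference was -1.75, and the E13.5 array of that batch did not detect Cdx1 or Cdx4. The other E13.5 array, replicate 2, had the fewest detected probes of all 36 arrays (10814) and a signal over background of 2.225. This comparison moved with the scaling: the median of all tested probes was -0.12, and 0.12 with cyclic loess, and of the called probes 2294 were higher and 2706 lower, which became 1800 and 777 with cyclic loess. With cyclic loess Cdx1 probe 1 was no longer called (-0.81, adjusted p 0.197), while with no background correction it was called at -1.69.

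From E12.5 to E13.5, 2 of the 4 probes were called lower, where 4.53% of all tested probes were. Cdx2 read 12.64 and 13.16 at E12.5 and then 11.87 and 11.75, without overlap, and fell 2.13-fold (-1.09, SE 0.235, adjusted p 0.00739; -0.77 within batch 2 and -1.41 within batch 3). Its call was lost without E12.5 replicate 2 (-0.95, adjusted p 0.172) or E13.5 replicate 2 (-0.87, adjusted p 0.113) and held in 9 of 12 other settings. Cdx4 read 8.15 in batch 2 and 9.84 in batch 3 at E12.5, and 5.60 and 8.48 at E13.5, so that the stages overlapped across batches but not within them. It was detected on 1 of the 2 E13.5 arrays, that of batch 3, where the difference was -1.35. The fitted difference was -1.95 (SE 0.478, adjusted p 0.0163), and the call was lost without E13.5 replicate 1 (-0.87, adjusted p 0.158) or E12.5 replicate 2 (-1.57, adjusted p 0.278) and with cyclic loess (-1.59, adjusted p 0.184). Without E13.5 replicate 2 the value was -3.04 and called. Cdx1 probe 1 was not called at -0.92 (adjusted p 0.0521), and its value with cyclic loess was 0.94. With the replicate number as a block Cdx1 probe 1 was called, at -0.92.

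The same gene lists were counted between E9.5 and E13.5. Of 16 genes of Hox groups 4 to 9, 10 were lower (median -1.21, against -0.12 over all probes, of which 2706 of 21712 were called lower and 2294 higher; 5 with cyclic loess), and of 8 of groups 1 to 3, 4 were lower (Hoxb1 -3.20; 1 with cyclic loess). In groups 10 to 12, 2 of 7 were higher and 2 lower, and in group 13, 2 of 4 were higher (Hoxc13 2.69). Of 5 Wnt ligands 3 were lower (Wnt5b -2.36), and 1 with cyclic loess. Of 10 FGF genes 4 were lower, such as the FGF target Etv5 (-3.03, detected on 1 of 2 E13.5 arrays), and of 8 caudal progenitor factors 3, led by Nkx1-2 (-2.67). The 4 streak markers, 3 of them lower, summed to 30500 and 31500 at E9.5 and to 21900 and 10700 at E13.5, with T at the highest intensity. Surface ectoderm markers were higher in 3 of 5 cases (among them the keratin Krt14, undetected at E9.5), with sums of 296 and 320 at E9.5 and 4210 and 4260 at E13.5, Krt14 at the highest intensity at E13.5 and the keratin Krt15 undetected on these arrays. Their part in the Cdx differences was not tested.

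The genes whose 16 region means followed each Cdx gene most closely were found among 13400 candidates, each with 1 probe. For Cdx1 these included the RNA-binding factor Grsf1 (Pearson r 0.974, n = 16 regions), the retrotransposon-derived gene Cxx1c (0.932), the scaffold gene Lin7a (0.926) and the secreted protease inhibitor Wfikkn1 (0.924). For Cdx2 they were Hoxb2 (0.963), Hoxa2 (0.946), Hoxb1 (0.938), the reelin receptor Lrp8 (0.936) and the Wnt receptor Fzd10 (0.927), all 5 lowest, like Cdx2 itself, in E7.5 A, and no r was computed without that region. For Cdx4 they were the unnamed predicted gene LOC100047738 (0.907), Hoxa7 (0.905), Hoxa4 (0.896), the FGF inhibitor Il17rd (0.884) and the Wnt ligand Wnt5b (0.876), of which Hoxa4 dropped to 0.659 on means not adjusted for batch. All 5 were likewise lowest in E7.5 A, where Cdx4 was undetected, and here too no r was computed without that region. The Cdx genes were less alike among themselves. Cdx2 and Cdx4, both lowest in E7.5 A, had an r of 0.747, Cdx1 and Cdx2 one of 0.493, and Cdx1 and Cdx4 one of 0.108 (0.273 on means not adjusted for batch), while both Cdx1 probes shared 0.991. These are descriptions over regions that share arrays, batches and the batch adjustment.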

How the data were processed

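The deposited table held non-normalized probe intensity values and a detection p-value for each probe and array, which the authors exported after scanning MouseWG-6 v2.0 BeadChips; scanner software is not given in the sources used here. The submitters' notes name lumi with a variance-stabilising transform and robust spline normalisation. Neither was used, since lumi was not installed and bead standard errors were not among the files used here. Intensities were background-corrected with normexp from the detection p-values, an offset of 16 was added, and quantile normalisation and log2 followed (neqc). A probe was tested where its detection p was under 0.01 on at least 1 array (21712 of 45281). Tests used limma (region plus batch, moderated t, 18 residual degrees of freedom, Benjamini-Hochberg over all tested probes), with a batch term in place of ComBat. Each gene difference subtracted the reference gene's value on the same array. The model was run on simulated data with known differences and batch shifts, where no called probe had the wrong sign. Named genes were all probes of the 3 symbols, the 5 most alike genes of each (1 of those of Cdx1 is not reported here) and, per list, at most 4 called genes of largest difference. The lists were Wnt ligands, Wnt effectors, FGF genes, retinoic acid genes, caudal progenitor factors, 4 Hox groups, ParaHox neighbours and tissue markers. Members and lists were chosen with earlier results of these data known. Left out were all other genes except as list members, markers or background. Tools were R 4.3.3, limma 3.58.1, Python 3.11.15 and matplotlib 3.10.9. RefSeq coordinates were those of GRCm38.p6.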

Additional observations from a re-analysis of the deposited data

Results flagged for a closer look

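The difference of Cdx1 (probe 1) between a caudal piece and its comparison piece was called as different between E7.5 and E8.5. The difference of the differences, St5 minus St1 at E8.5 less PP minus P at E7.5, was -2.40 on the log2 scale (limma, adjusted p 0.00621), and it was picked out because an effect measured at 2 stages differed by a direct test. Probe 2 of the same gene gave -1.19 (adjusted p 0.5). With ComBat without region covariates the value was -1.43 and not called (adjusted p 0.196), and no batch held both P and PP. The pieces at the stages were cut at different landmarks. By the paper's account P took in the rest of the embryo along with the streak, whereas St1 was the rostral end of the streak alone. The cause of the difference was not tested.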

How the results depend on the processing

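Of 1121 comparisons of a value with its value under another setting, 961 kept their direction and their side of the threshold, 68 became called, 39 lost a call and 53 turned direction. With 1 array left out at a time the counts were 3240, 18, 20 and 43, and the lone array of a region was then assumed to vary like the others. For the turned values, and for those that lost or gained a call, the cause was not tested. The setting without the 2 arrays with the fewest detected probes, E13.5 CNH replicate 2 (10814) and E8.5 CLE replicate 1 (11062), was chosen after seeing the data. Without E8.5 NSB replicate 3, 9 of the 26 comparisons could not be fitted. Median signal over background was 7.52, 3.89 and 5.4 in batches 1, 2 and 3, and values under the detection limit carry no fold. Over all settings the Cdx2 difference of P minus A ran from 4.93 to 6.10, the Cdx1 difference of E10.5 CNH minus NSB from -7.14 to -4.26 and the Cdx4 difference of E13.5 minus E9.5 from -4.34 to -2.40.

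With no background correction, Cdx1 CLE minus RN was -0.03, Cdx2 E9.5 CNH minus NSB -0.04, and Cdx1 relative to Cdx2 0.33 in E13.5 minus E9.5 and -0.07 in P minus A. With an offset of 100 these were -0.03, -0.03, 0.57 and -0.18. With cyclic loess, Cdx1 was -0.13 in CLE minus RN, 0.94 in E13.5 minus E12.5 and -0.81 in E13.5 minus E9.5 (limma, adjusted p 0.197), Cdx2 was -0.44 in E9.5 CNH minus NSB and 0.35 in E10.5 minus E9.5, and Cdx1 relative to Cdx2 was 0.98 in E13.5 minus E9.5. With no batch term, Cdx1 was 0.05 in CLE minus NSB, 0.02 in CLE minus St1 and -0.16 in E10.5 minus E9.5. Cdx2 was then 0.09 in CLE minus NSB, -0.11 in E11.5 CNH minus P-CNH and -0.07 in E9.5 CNH minus NSB. Cdx4 was then -0.16 in CLE minus RN, -0.19 in CLE minus NSB, -1.37 in CLE minus St1, -0.08 in E9.5 CNH minus NSB and 1.26 in E10.5 minus E9.5.

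With ComBat without region covariates, Cdx1 was -0.99 in PP minus P, 0.78 in CLE minus NSB, 0.72 in CLE minus St1, -0.93 in NSB minus P, -3.82 in E10.5 minus E9.5 (called) and 3.13 in E11.5 minus E10.5 (called). Cdx2 was -0.02 in PP minus P, 0.54 in CLE minus NSB, 0.19 in CLE minus St1, 0.02 in E9.5 CNH minus P-CNH, -0.10 in NSB minus P, 0.86 in E11.5 minus E10.5 and -0.64 in St5 minus PP, Cdx4 was 0.06 in E11.5 minus E10.5, and Cdx1 relative to Cdx4 was -0.05 in E13.5 minus E9.5. With the BeadChip as a random block, Cdx2 CLE minus NSB was 0.05, Cdx4 was -0.65 in CLE minus St1 and 0.93 in E10.5 minus E9.5, and Cdx1 relative to Cdx4 was -0.19 in E13.5 minus E9.5. Without the 2 arrays with the fewest detected probes Cdx2 CLE minus NSB was 0.00. On probe 2, Cdx1 was -0.05 in NSB minus RN, -0.02 in CLE minus RN, 0.03 in CLE minus NSB, -0.06 in E11.5 CNH minus P-CNH, 0.04 in St5 minus PP and -0.96 (adjusted p 0.199) in St5 minus St1. In P minus A, Cdx1 relative to Cdx2 was 0.98 on probe 1 (limma, adjusted p 0.00385) and -1.02 on probe 2 (adjusted p 0.0113), called in opposite directions. In E13.5 minus E9.5 the values were -0.98 on probe 1 (adjusted p 0.0112) and -0.86 on probe 2 (adjusted p 0.0598, not called). Batch 1 alone gave Cdx4 -0.60 in E10.5 CNH minus P-CNH (adjusted p 0.0293) and 0.67 in E10.5 CNH minus NSB (adjusted p 0.00214).

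The labels do not say that equal replicate numbers mark shared embryos, but in batch 1 the number coincided with the BeadChip, and replicates 1 and 2 of A and P shared a BeadChip and pool sizes of 9 and 13 pieces. Over all arrays, correlations of same-numbered residuals ran from -0.568 to 0.612, -0.715 to 0.612 and -0.485 to 0.0398. With the replicate block, Cdx2 CLE minus NSB was 0.08, Cdx2 E11.5 CNH minus P-CNH -0.06, Cdx4 E9.5 CNH minus P-CNH 0.01 and Cdx4 E12.5 minus E11.5 -0.07. Cdx4 PP minus P lost its call with it (2.18, adjusted p 0.0984), Cdx1 E13.5 minus E12.5 gained one (-0.92, adjusted p 0.0446), and no other Cdx call changed.

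With 1 array left out, the ranges that crossed 0 were -0.22 to 0.19 for Cdx1 CLE minus RN, -0.08 to 0.16 for Cdx1 E10.5 minus E9.5, -0.03 to 0.02 for Cdx2 CLE minus NSB, -0.29 to 0.02 and -0.04 to 0.09 for Cdx2 CNH minus P-CNH at E9.5 and E10.5, -0.06 to 0.08 for Cdx2 E9.5 CNH minus NSB, -0.09 to 0.11 for Cdx4 St5 minus CLE, -0.60 to 0.46 for Cdx4 E9.5 CNH minus P-CNH and -0.16 to 0.59 for Cdx4 E12.5 minus E11.5. In E13.5 minus E9.5 they were -2.58 to 0.03 for Cdx4 relative to Cdx2 and -1.07 to 1.60 for Cdx1 relative to Cdx4.

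Counts of called probes moved by more than 1.5 times as follows. P minus A had 593, against 935 with ComBat with regions and 260 in batches 2 and 3 alone. NSB minus RN had 29, against 152 and 82 with ComBat without and with regions, 65 with the BeadChip block, 427 in batch 1 alone and 47 without the 2 arrays. St5 minus St1 had 709, against 1949 with ComBat without regions and 2737 in batch 1 alone. E10.5 CNH minus P-CNH had 69, against 185, 105 and 559 (ComBat without and with regions, batch 1 alone), and E10.5 CNH minus NSB 1550, against 4268, 2343 and 4292. E13.5 minus E9.5 had 5000, against 2577 with cyclic loess, 1640 with the BeadChip block and 2316 in batches 2 and 3 alone. With 1 array left out the counts ran from 386 to 699, 7 to 39, 337 to 839, 26 to 91, 918 to 1846 and 2255 to 7556 in the same order.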
